A study of Mus musculus with 2 samples.

Results

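Aminoacyl-tRNA synthetases are the enzymes that join each amino acid to its transfer RNA. They were followed here in a pair of mouse CD4+ T cell populations. The family was taken from the gene symbols, as protein-coding genes named by an amino acid letter followed by "ars", with an optional ending, and the phenylalanine enzymes Farsa, Farsb and Fars2. This gave 36 of the 41592 genes in the table. By textbook assignment 18 of them are cytosolic, 16 are mitochondrial and 2, Gars and Kars, make both forms from 1 gene. Read to the letter, the naming rule leaves out Eprs, which charges both glutamate and proline, and Pars2, the mitochondrial proline enzyme, and these are given apart.

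The populations were the Thy1.1-YFP+ cells and, as their comparison, the Thy1.1+YFP+ cells. Both were sorted as CD4+ cells, and the C57BL/6 mice they came from, aged 6 to 8 weeks, gave spleen and lymph node. All mice carried the same alleles, Foxp3 ΔCNS1-Cre and a Rosa26 YFP reporter, so Cre was driven by Foxp3 regulatory DNA without the conserved element CNS1, and YFP marks cells in which Cre has acted together with their progeny. Each population is 1 library, with 18536339 counted reads for Thy1.1-YFP+ and 18600581 for Thy1.1+YFP+ cells, as recovered from the deposited values. The number of mice behind a library is not given in the sources used here. With a single library per population nothing could be tested, and the values below describe these 2 libraries. The study concerns thymus-derived regulatory T cells and exFoxp3 precursors. Its description lists identical markers for both, so marker names are used here.

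Both libraries had the markers of CD4+ regulatory T cells. Foxp3, the transcription factor of the lineage, stood at 158 FPKM in Thy1.1-YFP+ and 237 FPKM in Thy1.1+YFP+ cells, where FPKM is reads scaled by gene length and by the library's total. Il2ra, the high-affinity interleukin receptor chain, was the 1 of 4 regulatory T cell markers at least 2-fold lower, at 98.8 against 205 FPKM, and Ctla4, a checkpoint receptor, was the highest of the 4 at a difference of 0.07. Summed levels of markers of other cells stayed below 5 FPKM in each library for CD8 T, B, natural killer, myeloid, dendritic and erythroid cells. Among these, the myeloid sum was 4.58 FPKM in Thy1.1-YFP+ and 0.597 FPKM in Thy1.1+YFP+ cells, of which Itgam made up 4.17 and 0.272 FPKM. The natural killer sum was 2.08 and 0.663 FPKM, with 1 gene at least 2-fold higher. The erythroid sum was 1.29 and 3.41 FPKM, with 1 gene at least 2-fold lower, and the B cell sum was 1.94 and 2.27 FPKM. The plasma cell sum was 145 FPKM in Thy1.1-YFP+ and 164 FPKM in Thy1.1+YFP+ cells, nearly all of it Xbp1, which T cells also express, while Jchain was at 0.440 and 0.779 FPKM. Proliferation genes differed strongly. All 12 were higher in Thy1.1-YFP+ cells and 8 were at least 2-fold higher, between Mcm2, a replication helicase subunit, at a difference of 0.05 and Aurkb, a mitotic kinase, at 2.54. Mki67, the gene of Ki-67, was at 13.5 FPKM in Thy1.1-YFP+ and 1.49 FPKM in Thy1.1+YFP+ cells. Their part in any synthetase value was not tested, and in bulk RNA a change in the share of dividing cells and a change in RNA per cell cannot be told apart.

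A cell needs a charged transfer RNA for every amino acid. Cytosolic synthetases serve translation by cytosolic ribosomes, and mitochondrial ones, encoded in the nucleus and imported, serve the few proteins made inside the organelle. Several cytosolic enzymes sit together with scaffold proteins in a multisynthetase complex. When amino acids run short, the kinase GCN2 senses uncharged transfer RNA, and the transcription factor Atf4 then raises many cytosolic synthetase genes. Activated T cells raise their translation capacity as they grow.

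All 36 synthetases were expressed in both libraries, and none differed 2-fold between them. Levels ran between 1.82 FPKM for Mars2 and 145 FPKM for Vars in Thy1.1-YFP+ cells, and between 1.504 FPKM for Mars2 and 171 FPKM for Vars in Thy1.1+YFP+ cells. The rule for a 2-fold difference was 1 or more on the log2(FPKM + 1) scale. It was applied to genes averaging 1 FPKM or more, and all 36 members did. By that rule 0 of 36 were higher and 0 were lower, against 1.93% and 1.15% of all 12820 measured genes. On this scale 16 members lay above 0 and 20 below, so 44.4% were above 0, against 55.1% of measured genes, of which 44.9% were below 0. The family's median difference, Thy1.1-YFP+ minus Thy1.1+YFP+, was -0.05, and that of all measured genes was 0.03. Scaling both libraries to a common upper quartile shifted the median of all genes by 0.23 and put 31 members above 0. The split around the median gene was 16 above and 20 below with the deposited values and also after that rescaling. A rescaling moves all genes by nearly the same amount, so positions relative to the median gene could hardly change and are no separate check.

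**Figure D1:**
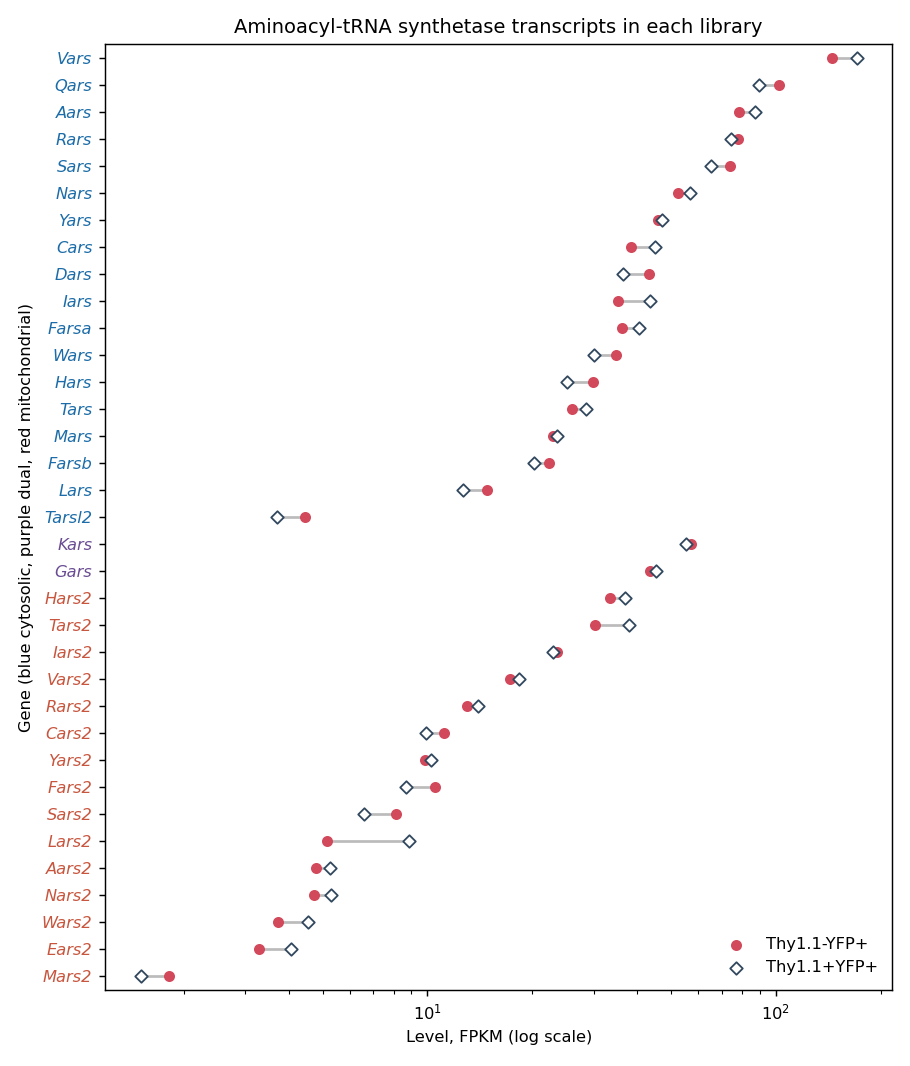
Level of 35 of the 36 synthetases in FPKM on a log axis, with a filled circle for Thy1.1-YFP+ and an open diamond for Thy1.1+YFP+ cells, 1 library each, grouped by compartment and ordered by mean level. Vars was highest and Mars2 lowest in both libraries, and the widest gap between libraries is that of Lars2.

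Counting error was small enough to separate many members. Reads per member and library ranged between 132 and 4407, and 95% exact binomial intervals of the ratio, Thy1.1-YFP+ over Thy1.1+YFP+, were built from them. These intervals cover counting error only, not variation between mice, sorts or library preparations. For 10 members, 27.8%, the whole interval lay above 1, and for another 10 it lay below 1. Among all measured genes those shares were 27.3% and 19.1%. The members varied about as widely as other genes did. The interquartile range of the difference was 0.33 wide in the family and 0.32 wide over all measured protein-coding genes. Together, the 36 genes took 38242 reads in Thy1.1-YFP+ and 39546 reads in Thy1.1+YFP+ cells, a pooled ratio of 0.970 (0.957 to 0.984).

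**Figure D2:**
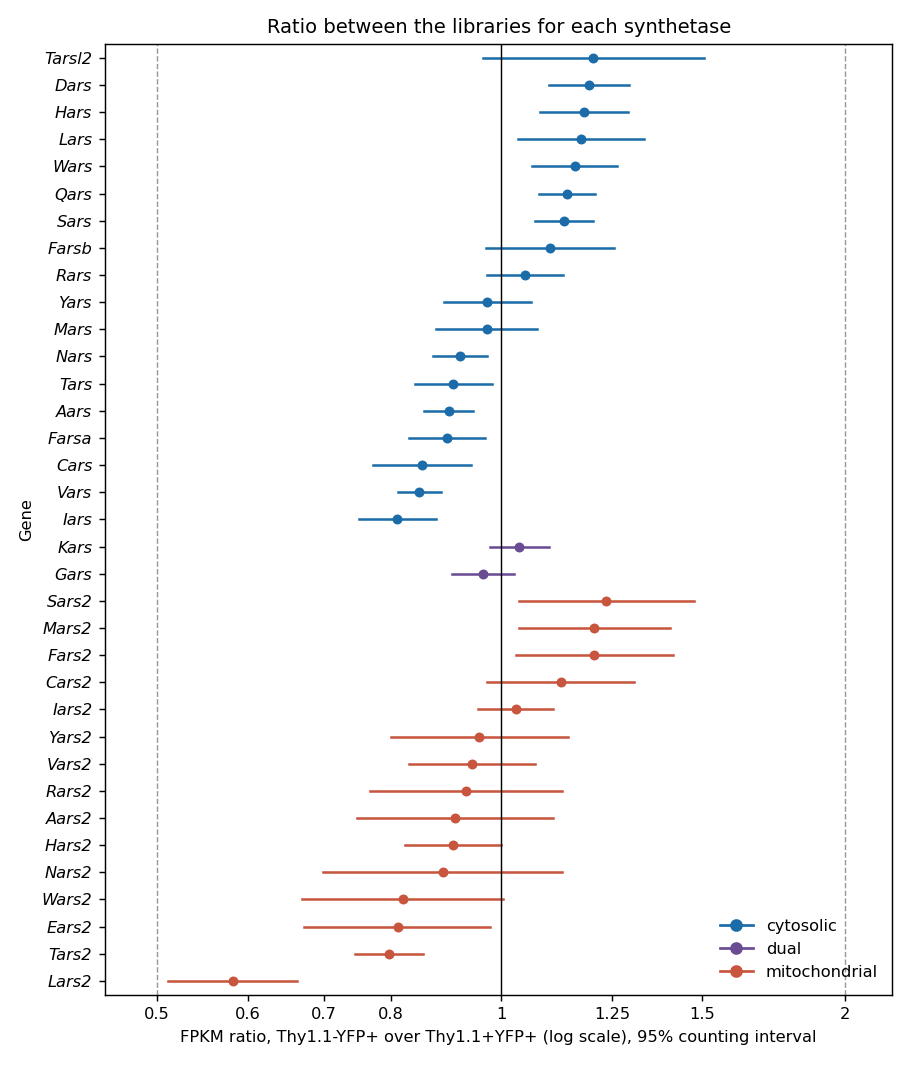
Ratio of FPKM, Thy1.1-YFP+ over Thy1.1+YFP+, on a log axis for 35 of the synthetases, with 95% counting intervals as lines, the solid vertical line at 1 and dashed lines at 0.5 and 2. All 35 points lie between the dashed lines, and Lars2, at 0.582, stands apart from the others drawn, which lie between 0.798 and 1.24.

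The cytosolic enzymes split evenly, with 9 above 0 and 9 below and a median difference of 0.01. The median of the group lay 0.02 below that of all genes (-0.02). With the upper quartile 17 of the 18 lay above 0, and the median was then 0.01 above the median gene. Intervals lay wholly below 1 for 7 cytosolic enzymes and wholly above 1 for 6. The group's reads numbered 26793 in Thy1.1-YFP+ and 27472 in Thy1.1+YFP+ cells, a ratio of 0.979 (0.962 to 0.995).

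On the lower side, Iars, which charges isoleucine, stood at 35.3 FPKM in Thy1.1-YFP+ and 43.5 FPKM in Thy1.1+YFP+ cells, a ratio of 0.811 (0.751 to 0.876). Vars, the valine enzyme and the most abundant member, stood at 145 and 171 FPKM, a ratio of 0.848 (0.812 to 0.886). Cars, for cysteine, had 38.3 against 44.98 FPKM and a ratio of 0.852 (0.772 to 0.940). These 3 were the lowest cytosolic enzymes relative to Thy1.1+YFP+ cells, and between 12.03% and 16.5% of measured genes had a lower difference. Smaller gaps were seen for Aars, the alanine enzyme, at 78.6 against 87.4 FPKM, for Tars, the main cytosolic threonine enzyme, at 25.97 against 28.6 FPKM, and for Nars, for asparagine, at 52.3 against 56.8 FPKM. Their ratios were 0.8995, 0.908 and 0.921, each with an interval below 1. With rescaling by the upper quartile Vars, Cars, Aars, Tars and Nars turned to the other side of 0, and Iars did not.

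On the higher side, Dars, which charges aspartate, reached 43.4 FPKM in Thy1.1-YFP+ against 36.4 FPKM in Thy1.1+YFP+ cells, a ratio of 1.19 (1.102 to 1.29). Hars, for histidine, had 29.8 against 25.2 FPKM and a ratio of 1.18 (1.08 to 1.29). Lars, for leucine, had 14.9 against 12.7 FPKM and a ratio of 1.17 (1.03 to 1.33). These 3, like every member above 0 with the deposited values, stayed on the higher side under every rescaling tried. Wars, the tryptophan enzyme, is known to be induced by interferon-gamma. It stood at 34.9 FPKM in Thy1.1-YFP+ and 30.1 FPKM in Thy1.1+YFP+ cells, a ratio of 1.16 (1.06 to 1.26). Of 7 other genes inducible by that cytokine 6 were above 0 too, none past 2-fold, and the list ran between Irf1 at -0.06 and Gbp2 at 0.27. Of the 7, 6 lay above the median gene. Qars, for glutamine, had 102 against 89.7 FPKM and a ratio of 1.14 (1.08 to 1.21), and Sars, for serine, had 73.8 against 64.97 FPKM and a ratio of 1.14 (1.07 to 1.204).

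The remaining cytosolic enzymes could not be separated from a ratio of 1, apart from Farsa. Rars, for arginine, stood at 77.96 FPKM in Thy1.1-YFP+ and 74.3 FPKM in Thy1.1+YFP+ cells, Mars, for methionine, at 22.9 and 23.6 FPKM, and Yars, for tyrosine, at 45.9 and 47.1 FPKM. Tarsl2, a second cytosolic threonine enzyme, was the least abundant of the group at 4.46 and 3.703 FPKM, with a ratio of 1.204 and an interval of 0.964 to 1.51. The phenylalanine enzyme is built from a catalytic alpha and a beta subunit, and the pair lay on opposite sides of 1. Farsa, the alpha subunit, stood at 36.2 against 40.4 FPKM, a ratio of 0.896 (0.830 to 0.967). Farsb, the beta subunit, stood at 22.3 against 20.2 FPKM, a ratio of 1.102 (0.969 to 1.254). Farsa was thus 1.62 times as abundant per length as Farsb in Thy1.1-YFP+ and 1.999 times in Thy1.1+YFP+ cells.

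Both enzymes that serve the 2 compartments from 1 gene were level. Gars, for glycine, stood at 43.6 FPKM in Thy1.1-YFP+ and 45.2 FPKM in Thy1.1+YFP+ cells, a ratio of 0.964 (0.905 to 1.03). Kars, for lysine, stood at 57.2 and 55.1 FPKM, a ratio of 1.04 (0.977 to 1.101). With the deposited values Eprs, outside the naming rule, was lower in Thy1.1-YFP+ cells at 52.9 against 59.6 FPKM, a ratio of 0.887 (0.853 to 0.923). Pars2, also outside it, had 2.197 against 2.73 FPKM, or 65 against 81 reads, and an interval of 0.572 to 1.13.

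By median and by summed reads the mitochondrial enzymes leaned towards Thy1.1+YFP+ cells with the deposited values, but interval counts did not. Intervals lay wholly below 1 for 3 of the 16, and no fewer lay wholly above 1. Of 16, 6 lay above 0 and 10 below, with a median difference of -0.09, which is -0.12 relative to the median gene. With the upper quartile 12 lay above 0, and the median was then below that of all genes by 0.10 (-0.10). Their reads numbered 7275 in Thy1.1-YFP+ and 7894 in Thy1.1+YFP+ cells, a ratio of 0.925 (0.896 to 0.955), and 0.955 (0.924 to 0.987) without Lars2. The widest gaps in these reads were those of Tars2, at 1472 against 1851, and Lars2, at 370 against 638. The distance between the groups was small. The cytosolic median exceeded the mitochondrial one by 0.10, by 0.05 among the 31 members averaging 5 FPKM or more and by 0.06 with Eprs and Pars2 added. These distances lay inside the spread of members within each group.

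**Figure D3:**
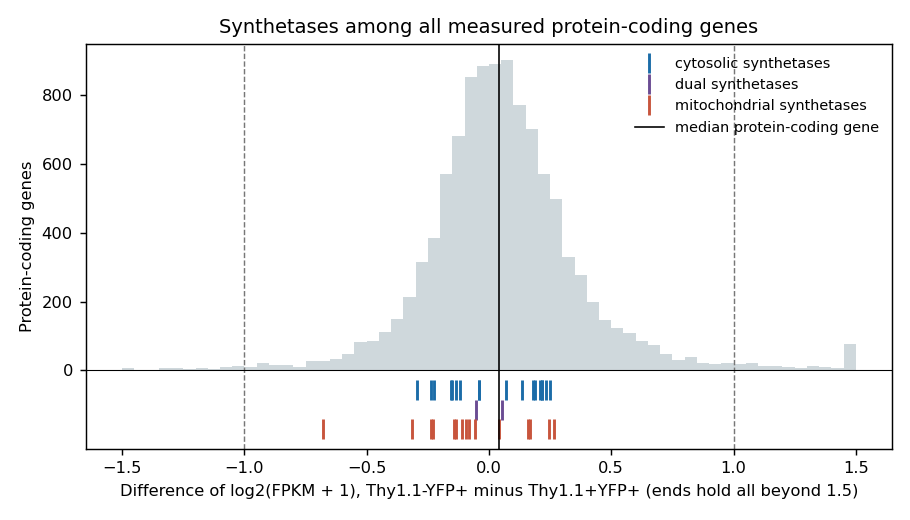
Histogram of the difference of log2(FPKM + 1), Thy1.1-YFP+ minus Thy1.1+YFP+, over measured protein-coding genes, with a tick for each of 35 synthetases below it by compartment and dashed lines at the 2-fold rule. The ticks spread across the body of the histogram, between -0.68 and 0.27, and none lies beyond a dashed line.

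Lars2, the mitochondrial leucine enzyme, had the largest gap in the family. It stood at 5.14 FPKM in Thy1.1-YFP+ against 8.84 FPKM in Thy1.1+YFP+ cells, or 370 against 638 reads, a ratio of 0.582 (0.511 to 0.663). By a smaller rule, a difference of at least 0.322, it was the single member past the threshold, at -0.68. Among all measured genes 10.7% were lower and 15.2% higher by that rule, and 2.87% had a difference below that of Lars2. It lay below 0 under every rescaling tried. Of its 50-base transcript words 0.196% occur in annotated transcripts of other genes, among them the antisense gene Gm15564, which had 19 against 32 reads and a ratio of 0.596 (0.319 to 1.08). Gm15564 was chosen after its values were seen, and its part in the Lars2 value was not tested. Lars, its cytosolic counterpart, went the other way, so Lars was 2.89 times as abundant per length as Lars2 in Thy1.1-YFP+ and 1.43 times in Thy1.1+YFP+ cells.

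Tars2, for threonine, was next at 30.2 FPKM in Thy1.1-YFP+ and 37.8 FPKM in Thy1.1+YFP+ cells, a ratio of 0.798 (0.745 to 0.855). Its difference of -0.316 lay just inside that smaller threshold. Ears2, for glutamate, had 3.295 against 4.06 FPKM and a ratio of 0.811 (0.672 to 0.978). Both lay below 0 under each rescaling tried, with Tars2 at -0.07 and Ears2 at -0.04 under the upper quartile. Wars2, for tryptophan, had 3.72 against 4.54 FPKM and an interval of 0.669 to 1.004. Intervals also held 1 for 8 other mitochondrial enzymes. Hars2, for histidine, had 33.4 FPKM in Thy1.1-YFP+ and 36.8 FPKM in Thy1.1+YFP+ cells, Vars2, for valine, 17.2 and 18.3 FPKM, and Rars2, for arginine, 12.99 and 13.9 FPKM. Yars2, for tyrosine, had 9.83 and 10.3 FPKM, Aars2, for alanine, 4.79 and 5.25 FPKM, and Nars2, for asparagine, 4.72 and 5.305 FPKM. These 6 had ratios between 0.889 and 0.957. Iars2, for isoleucine, had 23.6 and 22.9 FPKM, and Cars2, for cysteine, 11.2 and 9.93 FPKM, with ratios of 1.03 and 1.13. Iars2 shares 22.9% of its exon bases with Rab3gap2 on the opposite strand.

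Higher in Thy1.1-YFP+ cells with an interval above 1 were, among others, 3 mitochondrial enzymes. Sars2, for serine, had 8.13 FPKM in Thy1.1-YFP+ against 6.59 FPKM in Thy1.1+YFP+ cells and a ratio of 1.24 (1.04 to 1.47). Fars2, for phenylalanine, had 10.5 against 8.71 FPKM and a ratio of 1.21 (1.03 to 1.41). Mars2, for methionine, had 1.82 against 1.504 FPKM and a ratio of 1.21 (1.04 to 1.41). These 3 lower bounds lay close to 1.

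Cytosolic enzymes were the more abundant form for most amino acids. In 12 of 14 pairs of 1 cytosolic and 1 mitochondrial gene the cytosolic gene had the higher FPKM, in both libraries. Threonine was represented by Tars. Its second cytosolic enzyme, Tarsl2, at 4.46 FPKM in Thy1.1-YFP+ and 3.703 FPKM in Thy1.1+YFP+ cells, was left out of the pairs. The median ratio within a library was 7.21 in Thy1.1-YFP+ and 5.98 in Thy1.1+YFP+ cells. Cytosolic enzymes made up 75.5% of the family's summed FPKM in Thy1.1-YFP+ and 75.1% in Thy1.1+YFP+ cells. Aars exceeded Aars2 by most, 16.4 times in Thy1.1-YFP+ and 16.6 times in Thy1.1+YFP+ cells. The exceptions were threonine, where Tars without Tarsl2 was at 0.860 and 0.756 of Tars2, and histidine, where Hars was at 0.892 and 0.685 of Hars2. These ratios rest on the gene lengths the values were divided by, which ran from 864 bases for Rars2 to 11294 bases for Mars2.

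**Figure D4:**
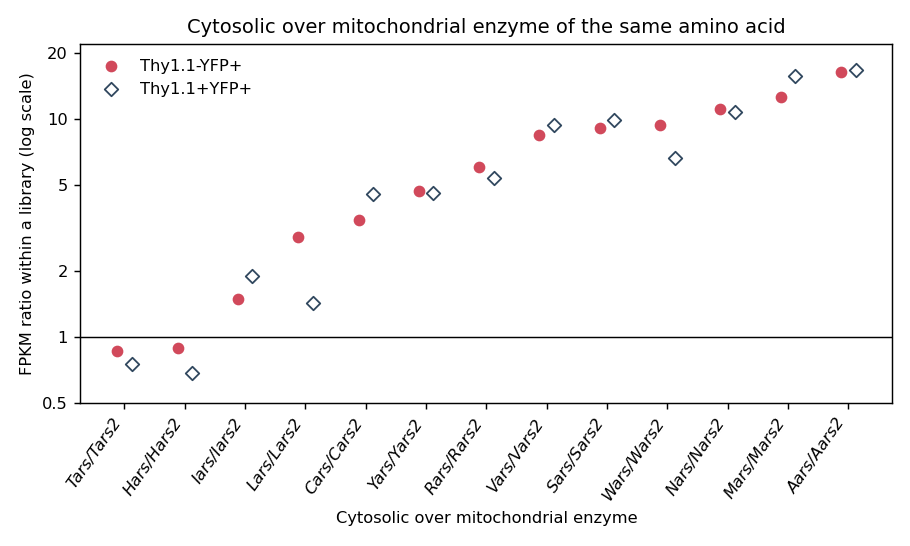
FPKM of the cytosolic over the mitochondrial enzyme within each library, on a log axis, for 13 of the 14 amino acids, with filled circles for Thy1.1-YFP+ and open diamonds for Thy1.1+YFP+ cells and a line at 1. Of the pairs drawn, only threonine (Tars alone over Tars2) and histidine lie below 1, and the libraries part most for leucine, at 2.89 and 1.43.

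By sign alone the compartments did not move as pairs, but in most pairs the interval of at least 1 enzyme held 1. Among the pairs named below, both intervals excluded 1 only for threonine, serine and leucine. The threonine and serine pairs each had the same sign in both compartments, and the leucine pair had opposite signs. The cytosolic and mitochondrial difference had the same sign in 7 of 14 pairs and opposite signs in 7, and with the upper quartile the same sign in 10. The cytosolic difference was the greater in 7. For serine both enzymes were higher in Thy1.1-YFP+ cells. For valine, alanine, asparagine, threonine (Tars and Tars2) and tyrosine both were lower with the deposited values. For histidine, leucine, tryptophan and arginine the cytosolic enzyme was higher and the mitochondrial one lower with the deposited values. For isoleucine, cysteine and methionine the cytosolic enzyme was lower and the mitochondrial one higher. The tryptophan pair differed by 0.44 and the leucine pair by 0.89. Hars and Hars2 lie on opposite strands and share 195 annotated exon bases, and whether the counting used strand is not given in the sources used here. Across the 14 pairs the Pearson r of the differences was -0.12, given as a description of genes that share both libraries.

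Enzymes of the multisynthetase complex lay above the other cytosolic or dual ones by median and by summed reads, with or without Eprs. The share above 0 with the upper quartile went the other way, and with Eprs the intervals of summed reads overlapped. The 7 complex enzymes that the rule holds, Dars, Iars, Kars, Lars, Mars, Qars and Rars, had 5 differences above 0 and a median of 0.07. The 13 cytosolic or dual enzymes outside the complex had 5 above 0 and a median of -0.05. Relative to the median gene 5 of 7 and 5 of 13 lay above it, while with the upper quartile 6 of 7 and 13 of 13 lay above 0. Summed reads of these 7 were 10018 in Thy1.1-YFP+ and 9588 in Thy1.1+YFP+ cells, a ratio of 1.05 (1.02 to 1.08), against 0.953 (0.935 to 0.971) for those outside. Eprs, the complex enzyme with the most reads, was lower, as given above. With it 5 of 8 lay above 0 and the median was 0.06, but summed reads were 14773 in Thy1.1-YFP+ and 14966 in Thy1.1+YFP+ cells, a ratio of 0.991 (0.968 to 1.01). Among the scaffold proteins, Aimp1 stood at 34.3 against 30.7 FPKM, Eef1e1 at 15.2 against 14.9 FPKM and Aimp2 at 9.05 against 9.62 FPKM. By catalytic fold, class I enzymes had 7 of 18 above 0 and class II enzymes 9 of 18, with medians of -0.05 and 0.00.

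Promoters of the family were searched for the amino acid response element, the composite site that Atf4 binds, spelled TGATGNAA, on both strands. RefSeq promoter windows on GRCm38.p6, 250 bases before to 50 after the start site, were matched for 28 members, 13 cytosolic or dual and 15 mitochondrial. A match was found in 5 of the 13 and in 0 of the 15. Among all 27025 genes with such a window 4.51% had one. The matching stretches are shown because all 5 genes that hold one lay below the median gene, although the intervals of Gars and Yars held a ratio of 1. Capitals mark the match, which reads in the reverse direction except in Yars, and each line runs 5′ to 3′ on the strand of the gene.
Iars, chr13:49682112-49682159, plus strand: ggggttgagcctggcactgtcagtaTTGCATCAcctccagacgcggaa
Aars, chr8:111033705-111033762, plus strand: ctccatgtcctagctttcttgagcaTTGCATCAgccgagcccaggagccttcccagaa
Tars, chr15:11399641-11399698, minus strand: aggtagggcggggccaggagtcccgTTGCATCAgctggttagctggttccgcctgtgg
Gars, chr6:55037946-55038003, plus strand: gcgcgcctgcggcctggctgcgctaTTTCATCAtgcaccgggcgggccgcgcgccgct
Yars, chr4:129189881-129189932, plus strand: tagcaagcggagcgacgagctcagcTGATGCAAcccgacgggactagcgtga
The first match base lay 112 bases before the start site in Aars, 30 before it in Gars and 15 before it in Tars, and 7 and 3 bases after it in Iars and Yars. Aars holds a further match after its start site.

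These 5 genes had ratios between 0.811 for Iars and 0.973 for Yars and a median difference of -0.13. All 5 lay below the median gene, although 4 of them lay above 0 with the upper quartile. The intervals of Gars (0.905 to 1.03) and Yars (0.891 to 1.06) held 1, and those of Iars, Aars and Tars lay below 1. Of the 8 cytosolic or dual enzymes whose window had no match 2 lay below the median gene, and the median difference of the 8 was 0.16. Among these 8, the intervals of Farsb, Kars, Mars and Tarsl2 held 1. Cars, Hars, Lars, Nars, Rars, Vars and Wars had no window and are in neither group, with differences on both sides of 0. The motif was searched with the members' values known, so the counts are a description. A match in these letters shows no binding. Matches to CACGTG, the E-box bound by Myc among others, were found in Aars, Iars, Tars, Farsb and Ears2, against 8.09% of all genes, and 3 of these also hold the amino acid response element. The E-box genes had a similar median difference, -0.15, with 4 of 5 below 0. Matches to the NRF1 site were found in Farsb, Iars2, Kars, Mars2 and Tars, against 5.19% of all genes. Of these 5 genes 1 lay below 0, and their median difference was 0.05. CCGGAAG, the core bound by ETS factors, was found in 10 members, 5 of them mitochondrial, against 9.93% of all genes. Of these 10 members 5 lay below 0, and their median difference was 0.01.

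Other genes of the amino acid response did not move one way. Atf4 itself was level at 221 FPKM in Thy1.1-YFP+ and 225 FPKM in Thy1.1+YFP+ cells, a ratio of 0.982 (0.950 to 1.02). Of 16 measured genes of the list 8 lay above 0 and 8 below, none past 2-fold, with a median of 0.00, and 8 lay above the median gene. Psat1, an enzyme of serine synthesis, was highest at 38.4 against 24.1 FPKM, a ratio of 1.596 (1.43 to 1.78). Shmt2, which makes glycine from serine in mitochondria, had the lowest difference of log2(FPKM + 1), -0.31, at 20.5 against 25.7 FPKM, a ratio of 0.797 (0.728 to 0.872). Eif2ak4, which encodes the sensor kinase GCN2, stood at 9.51 against 12.005 FPKM, a ratio of 0.792 (0.714 to 0.879). Asns, the asparagine synthetase and a standard Atf4 target, had 73 against 82 reads and an interval of 0.643 to 1.24. Myc, a transcription factor that raises genes of translation, stood at 26.1 against 41.8 FPKM, a ratio of 0.625 (0.573 to 0.681).

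The steps next to charging showed gaps of similar size. All 4 genes of the eEF1 complex, which takes charged transfer RNA to the ribosome and to which the valine enzyme binds, were lower in Thy1.1-YFP+ cells with the deposited values, between Eef1g at a ratio of 0.851 and Eef1a1 at 0.940. With the upper quartile all 4 lay above 0, while relative to the median gene all 4 lay below. Of the genes that correct charging errors, all 3 measured lay above 0, between Dtd1 at 0.12 and Prorsd1 at 0.28. Of these 3, only Prorsd1 had an interval that excluded 1, narrowly, at 1.0007 to 1.59. Mitochondria charge their glutamine transfer RNA through a glutamate intermediate and an amidotransferase. Its subunits lay on both sides of a ratio of 1, and only the interval of Qrsl1 excluded 1, narrowly. Qrsl1 had 7.14 against 5.84 FPKM and a ratio of 1.22 (1.003 to 1.49), and Gatb, the lowest of this list, had 4.04 against 4.702 FPKM and an interval of 0.681 to 1.08. None of these genes passed 2-fold.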

How the data were processed

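The deposited table holds FPKM for each Ensembl gene, with a single column for each population, as the authors made it. In the column names N and P stand for absence and presence of Thy1.1, a reading taken from the sample titles. Libraries were made from 3 µg of total RNA of cells sorted to a purity typically above 97%, per the labels' protocols. HTSeq 0.6.1, TopHat2 2.0.12, Bowtie2 2.2.3 and the build mm9 are named in the submitters' processing notes, without settings or strand use. Symbols and gene types came from GENCODE M21, on another build than mm9, for 40254 of 41592 IDs (96.8%).

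FPKM is no count, so no count model was run. Whole reads were recovered to give counting intervals. For the 23442 genes with a value in each library, the ratio of FPKM was a ratio of whole numbers multiplied by 1.003, the ratio of totals. The totals were those at which annotated lengths were met most often, by 321 genes. Gene lengths then came out whole for 99.3% of measured genes, and each gene's reads were the multiple giving a whole length nearest the annotated mean. That length was within 1 base for 17 of 36 members. The reads so recovered came to 100.4% of the Thy1.1-YFP+ total and 100.3% of the Thy1.1+YFP+ total. Recovery was tested on simulated data. Intervals are exact Clopper-Pearson at 95%.

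Differences are log2(FPKM + 1), Thy1.1-YFP+ minus Thy1.1+YFP+, which understates low genes. Alternatives were other rescalings, pseudocounts, filters, fold rules and memberships. The members, lists and rules were chosen with earlier results of these data known. The values of 1 member are not reported here, although it is counted in the group totals. The other members were named, and of each other list the highest, the lowest and any gene past 2-fold, with Foxp3, Atf4 and Myc; Mki67, Itgam, Xbp1, Jchain, Asns and Eif2ak4 were added after their values were seen, and the other proliferation genes past 2-fold are given as a count and markers of other cells as sums. Python 3.11.15 and scipy 1.17.1 were used.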

Additional observations from a re-analysis of the deposited data

How the results depend on the processing

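No paired analysis was possible because each population is 1 library, and none could be left out. No member passed 2-fold under any setting tried, and at a lower fold rule of 1.5 the count was 1, Lars2. The number past a difference of 0.322, which was 1 with the deposited values, was 2 at equal sums, 3 relative to the median gene, 3 with the 100 highest genes left out, 3 with a pseudocount of 0.1, 14 by the upper quartile (13 higher and 1 lower) and 0 without Lars2, a setting chosen after seeing the data. The cytosolic median, 0.01, was -0.021 relative to the median gene, -0.021 with the 100 highest genes left out, 0.27 by the upper quartile, -0.039 among members averaging 5 FPKM or more and -0.039 with Eprs and Pars2 added. The mitochondrial median, -0.09, was 0.15 by the upper quartile. The cytosolic minus mitochondrial distance, 0.10, was 0.049 among members averaging 5 FPKM or more and 0.056 with Eprs and Pars2 added. The upper quartile shifts all genes, by 0.23, and the filter leaves 31 members. The cause of the other moves was not tested. Of 36 single differences, 26 moved beyond their counting interval by the upper quartile and 15 changed sign there. Overlap with another gene's exons covered 22.9% of the exon bases of Iars2 and 14.3% of those of Aars.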
